A study of Mus musculus with 4 samples.

Results

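The tumour necrosis factor (TNF) superfamily comprises membrane-bound or shed ligands and their cysteine-rich receptors, and its RNA was followed here from lymphoid progenitors into T lineage cells grown in culture. Members were the genes whose symbol starts with Tnfsf or Tnfrsf followed by a digit, together with Cd27, Cd40, Cd40lg, Cd70, Fas, Fasl, Tnf, Lta and Ltb. The array held 38 such genes with a single-gene probe set, 15 ligands and 23 receptors, among 19938 named genes. Each had 1 probe set. One further probe set, shared by Tnfsf12, Tnfsf13 and their fusion transcript, carried several symbols and was left out.

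Tcf1 cells were wild-type C57BL/6 bone marrow LMPPs (lymphoid-primed multipotent progenitors, sorted as lineage-negative Sca+ kit+ Flt3-high cells) given a retrovirus for the transcription factor Tcf1 (Tcf1-VEX), grown on OP9 stroma without added Notch ligand and sorted on day 10 as live CD45.2+ Mac1- Gr1- Thy1+ CD25+ cells. Their 2 arrays are given as biological replicates. Control cells came from LMPPs given the empty VEX retrovirus, were grown on OP9 stroma expressing the Notch ligand DL4, and were sorted on day 10 through the same gate (1 array). The LMPPs set against them were pooled and kept for 48 hours in the cytokine medium used for transduction (1 array). Vector and stroma thus changed together between Tcf1 and control cells, and time, stroma, vector and gate changed together between either of these and LMPPs, so that their effects cannot be told apart.

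Ligands of the family are trimers that cluster their receptors. Receptors with a death domain can start apoptosis through Fadd and caspase-8. Many receptors of the family recruit Traf adaptors and activate NF-kB, the usual route of costimulation in lymphocytes. Decoy receptors bind a ligand without passing on a full signal. In the thymus, RANK ligand (Tnfsf11) and the lymphotoxins (Lta, Ltb) made by developing lymphocytes act on epithelial cells, and in bone RANK ligand drives osteoclast formation.

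Values are deposited log2 signals, differences are on the same scale, and levels of different probe sets were not set against each other. Array medians lay between 7.47 and 7.59 over the named genes, and the difference between the Tcf1 arrays had an SD of 0.24 across genes and 0.29 across the family. Genes passed at a Benjamini-Hochberg adjusted p under 0.05 in limma, adjusted over all 19938 genes. The test took its spread from the Tcf1 pair and assumed that the single arrays varied likewise, so p-values measure the spread between these 2 samples. The probe sets of Cd40lg, Fas, Fasl and Tnfsf18 had means below 6.18, the 25th percentile of all genes, and read near the dim end of the arrays. Tcf7, the gene of Tcf1, is not analysed here. As a check of the labels, the sort marker genes Thy1 and Il2ra passed as higher in Tcf1 cells than in LMPPs (differences of 4.33 and 6.07). Cd3e, a defining T cell gene, read 7.45 and 7.42 in Tcf1 cells, against 10.41 in control cells and 7.32 in LMPPs.

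In Tcf1 cells compared with LMPPs, 4 members rose and 2 fell, and 32 did not pass (15.8% of the family passed, where 3.06% of all genes did, 1.75% higher and 1.31% lower). The risers were the costimulatory receptors Tnfrsf9 and Tnfrsf18 and the ligands Tnfsf11 and Lta, and those that fell were the receptors Tnfrsf13c and Tnfrsf10b. In Tcf1 cells compared with control cells, 5 members were lower, 0 higher and 33 did not pass (13.2% of the family, where 4.38% of all genes passed, 1.9% higher and 2.49% lower). The lower members were the ligands Ltb, Tnfsf10 and Tnfsf11 and the receptors Tnfrsf23 and Tnfrsf26. Altogether 10 members passed at least 1 of these tests, and Tnfsf11 alone passed both, above LMPPs and below control cells. In bulk RNA such as this, fewer cells of a type and less RNA per cell cannot be told apart. The plot of these members by array shows each level.

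**Figure D1:**
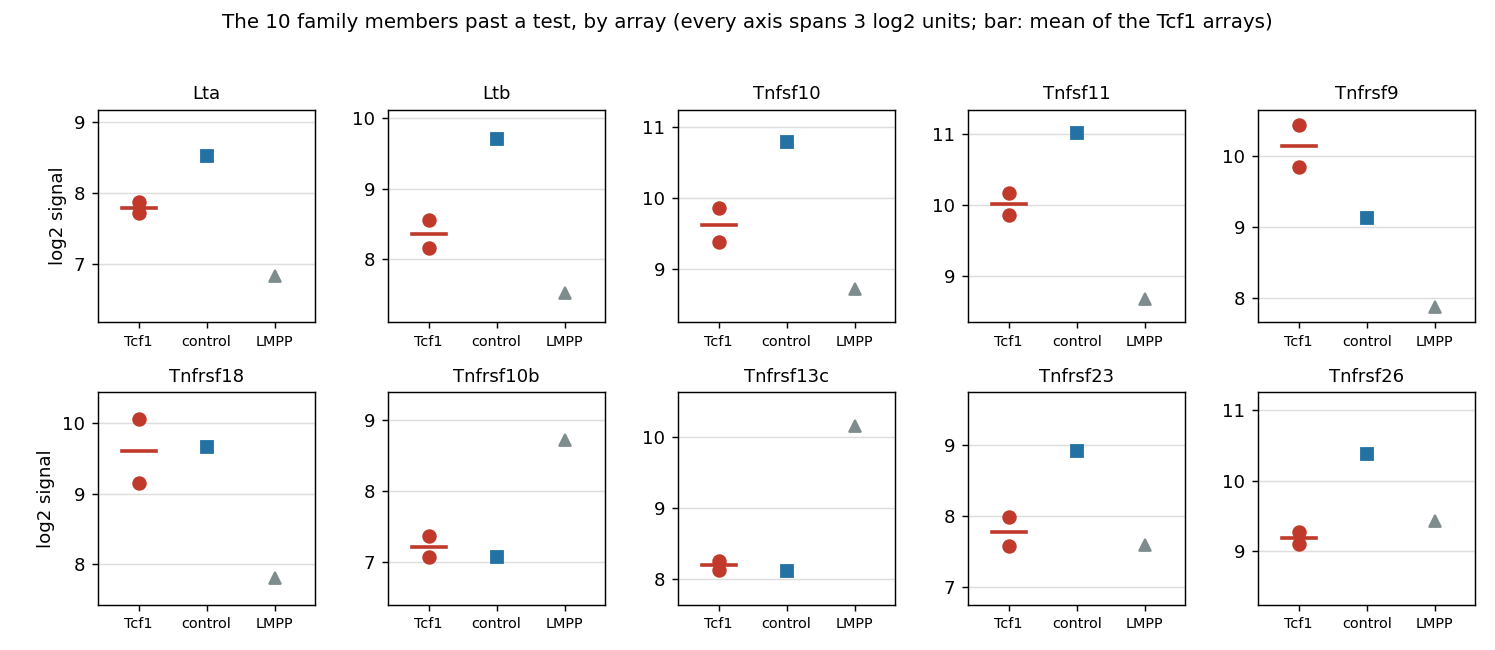
Log2 signal of the 10 family members that passed a test, with a panel for each gene. Circles are the 2 Tcf1 arrays with their mean as a bar, the square is the control array and the triangle the LMPP array. Each axis spans 3 log2 units at the gene's own level. For Lta, Ltb, Tnfsf10 and Tnfsf11 both Tcf1 arrays lie between the LMPP and the control array.

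At an unadjusted p under 0.05 in limma, 10 of the 38 members were higher and 3 lower against LMPPs, where 5.33% of all genes were higher and 9.22% lower. Against control cells 6 were higher and 7 lower, where 5.72% of all genes were higher and 8.37% lower. The median difference of the family was 0.19 against LMPPs (all genes 0.00) and 0.10 against control cells (all genes 0.02). Shifts of this size also separated the replicates, as Tcf1 replicate 2 was above replicate 1 by a median of 0.16 in the family (all genes 0.08). The family mean was 7.93 and 8.14 in Tcf1 cells, against 8.07 in control cells and 7.78 in LMPPs. Its side of the control array thus depended on the replicate. Ligands and receptors had medians of 0.25 and 0.18 against LMPPs and of -0.04 and 0.14 against control cells. After median centring of the arrays, 7 members were higher and 2 lower against LMPPs, where the shares of all genes were 3.04% and 4.26%. Against control cells 3 were higher and 7 lower after centring, where the shares of all genes were 3.02% and 5.24%. Mean differences of at least 2-fold were found for 5 members against LMPPs (2.9% of all genes) and for 5 against control cells (3.8% of all genes). Against LMPPs that count was 9 with Tcf1 replicate 2 alone, that is without replicate 1. The share of all genes for that array alone was not computed, so this count does not set the family apart. No member passed in either comparison when limma's moderation was left out or when all 35399 probe sets were tested together. Under these settings 12 of all 19938 genes and 0 of the probe sets passed in each comparison.

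Markers of other cells differed between the same arrays. Of 15 macrophage markers, 9 were higher and 0 lower in Tcf1 cells than in control cells, and their summed linear signal was 10491 and 13302 in Tcf1 cells, against 1908 in the control array and 5885 in LMPPs. Against LMPPs 5 of the 15 were higher and 1 lower. Of 9 neutrophil markers, 6 were lower and 0 higher in Tcf1 cells than in LMPPs, and 3 were higher and 0 lower than in control cells. The 3 were Elane, Mpo and Prtn3, while Ngp, Camp, Ltf, S100a8, S100a9 and Ctsg did not pass against control cells. The summed signal of the list was 7848 and 7054 in Tcf1 cells, against 2740 in the control array and 15427 in LMPPs. Of 11 dendritic cell markers, 3 were higher and 0 lower than in control cells, and 1 was higher and 0 lower than in LMPPs. The 3 were H2-Aa, H2-Ab1 and Cd74, whose Tcf1 arrays differed by 1.37, 1.31 and 1.14. The other 8, among them Itgax, Zbtb46, Batf3, Xcr1, Siglech and Cd209a, did not pass against control cells. Of 6 progenitor markers, 5 were higher and 0 lower than in control cells, and 1 was higher and 3 lower than in LMPPs. LMPPs were sorted on 2 genes of this list, Flt3, which was among those lower, and Kit, which was the 1 higher. Of 10 NK and innate lymphoid markers, 1 was higher and 2 lower than in control cells, and 2 were higher and 1 lower than in LMPPs. Of 9 T lineage markers, 5 were lower and 0 higher than in control cells, and 6 were higher and 0 lower than in LMPPs. The mean log2 signal of this list was 8.91 and 9.02 in Tcf1 cells, against 10.93 in the control array and 6.97 in LMPPs. It holds the sort marker genes Thy1 and Il2ra, whose calls against LMPPs and part in this mean follow from the gate. Of 11 stromal markers, 0 were higher and 1 lower than in control cells, with a mean of 6.85 and 6.95 in Tcf1 cells, against 6.91 in the control array. The part of these markers in the differences of the family was not tested.

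Among the ligands, RANK ligand was measured at 9.86 and 10.17 for Tnfsf11 in Tcf1 cells, against 11.02 in control cells and 8.67 in LMPPs. Both Tcf1 arrays were above the LMPP array and below the control array. Tnfsf11 rose 2.55-fold over LMPPs (log2 difference 1.35, SE 0.19, adjusted p = 0.0142, limma). Against control cells it was lower, at a log2 difference of -0.999 (SE 0.19, adjusted p = 0.0353, limma). Its receptor RANK, encoded by Tnfrsf11a, read 7.86 and 8.18 in Tcf1 cells, against 7.79 in the control array and 7.36 in the LMPP array, and passed neither test (0.66 against LMPPs, adjusted p = 0.157, limma). The soluble decoy of RANK ligand, osteoprotegerin (Tnfrsf11b), read 7.31 and 7.53 in Tcf1 cells, against 6.74 in the control array. This was the highest osteoprotegerin signal of the 3 groups, with a difference from control cells of 0.68 that did not pass (adjusted p = 0.101, limma). RANK passed against LMPPs with genes below the median left out, and osteoprotegerin passed against control cells under median centring and with genes below the 25th percentile left out.

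Lymphotoxin alpha and beta form a heterotrimer on lymphoid cells that signals through the lymphotoxin beta receptor, which is not among the members. Lta read 7.71 and 7.87 in Tcf1 cells, against 8.52 in control cells and 6.82 in LMPPs. It rose by 0.97 over LMPPs (SE 0.17, adjusted p = 0.0325, limma), and its difference of -0.73 from control cells did not pass (adjusted p = 0.0683, limma). Both Tcf1 arrays again lay between the other groups. Ltb read 8.16 and 8.56 in Tcf1 cells, against 9.70 in control cells and 7.53 in LMPPs. Ltb was 2.52-fold lower in Tcf1 cells than in control cells (log2 difference -1.33, SE 0.21, adjusted p = 0.0163, limma), while its difference of 0.83 from LMPPs did not pass (adjusted p = 0.104, limma). Tnf itself, which lies between Lta and Ltb in the gene order, read 9.16 and 9.35 in Tcf1 cells, against 9.96 in control cells and 9.44 in LMPPs. Its difference of -0.71 from control cells did not pass (adjusted p = 0.0841, limma), and both Tcf1 arrays were below both other arrays. Lta and Tnf passed against control cells, and Ltb against LMPPs, under median centring and under both filters on dim genes (below the 25th percentile or below the median left out). Lta also passed against control cells after renewed quantile normalization.

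TRAIL, the ligand of the death receptor Tnfrsf10b and an interferon-inducible gene in many cells, had signals of 9.37 and 9.86 for Tnfsf10 in Tcf1 cells, against 10.78 in control cells and 8.71 in LMPPs. Tnfsf10 was 2.24-fold lower in Tcf1 cells than in control cells (log2 difference -1.17, SE 0.23, adjusted p = 0.0383, limma). Its difference of 0.91 from LMPPs did not pass (adjusted p = 0.104, limma), but passed under median centring and both filters on dim genes. Both Tcf1 arrays lay between the other groups. The remaining 11 ligands, Tnf included, passed neither test. Tnfsf4, the OX40 ligand, had the widest replicate spread of the family, with 6.24 and 7.30 in Tcf1 cells, against 5.79 in control cells and 5.90 in LMPPs, and its differences of 0.98 from control cells and 0.87 from LMPPs did not pass (adjusted p = 0.315 and 0.38, limma). Fasl and Cd40lg, ligands of mature T cells, had differences between -0.13 and 0.10 in both comparisons and read dim throughout. Tnfsf14, known as LIGHT, a ligand of HVEM (Tnfrsf14), read 7.73 and 8.18 in Tcf1 cells, against 7.56 in control cells and 7.39 in LMPPs, and its differences of 0.39 from control cells and 0.56 from LMPPs did not pass. Cd70, Tnfsf8, Tnfsf15 and Tnfsf18, the ligands of CD27, CD30, death receptor Tnfrsf25 and GITR, differed from LMPPs by 0.30, -0.16, 0.10 and 0.25 and passed neither test.

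Of the 8 costimulatory receptors, 2 rose over LMPPs and 0 fell. Tnfrsf9, encoding the activation-induced receptor CD137, read 9.84 and 10.44 in Tcf1 cells, against 9.13 in control cells and 7.87 in LMPPs. Both Tcf1 arrays were above both other arrays. Tnfrsf9 rose 4.82-fold over LMPPs (log2 difference 2.27, SE 0.25, adjusted p = 0.00586, limma), which was the largest difference of the family in the tests. Against control cells its 2.02-fold higher signal did not pass (log2 difference 1.01, SE 0.25, adjusted p = 0.0918, limma). It passed there under median centring, with an intensity trend in the prior, and with dim genes left out. Its ligand gene Tnfsf9 read 7.55 and 7.58 in Tcf1 cells, against 7.12 in control cells and 7.86 in LMPPs, and passed neither test.

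Tnfrsf18, encoding GITR, a receptor of activated and regulatory T cells, read 9.15 and 10.05 in Tcf1 cells, against 9.66 in control cells and 7.81 in LMPPs. It rose 3.47-fold over LMPPs (log2 difference 1.80, SE 0.34, adjusted p = 0.0437, limma), a call lost after renewed quantile normalization (adjusted p = 0.0565). The control array lay between the Tcf1 arrays, and the difference of -0.06 had a 95% interval of -0.86 to 0.75. Tnfrsf4, which encodes OX40 and is the neighbour of Tnfrsf18 in the gene order, read 7.87 and 7.97 in Tcf1 cells, against 8.22 in control cells and 7.74 in LMPPs, and passed neither test. Cd27, a receptor present from lymphoid progenitors onwards, read 11.33 and 11.96 in Tcf1 cells, against 11.77 in control cells and 11.16 in LMPPs. Its differences of 0.49 from LMPPs and -0.13 from control cells did not pass. Cd40, Tnfrsf1b, Tnfrsf8 and Tnfrsf14 passed neither test, with differences from 0.08 for Cd40 to 0.43 for Tnfrsf1b against LMPPs.

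For both receptors that fell in Tcf1 cells, the control array read close to the Tcf1 arrays. Tnfrsf13c, the BAFF receptor of B cell survival, read 8.13 and 8.26 in Tcf1 cells, against 8.11 in control cells and 10.16 in LMPPs. It fell 3.90-fold relative to LMPPs (log2 difference -1.96, SE 0.17, adjusted p = 0.00181, limma). Its difference of 0.08 from control cells had a 95% interval of -0.31 to 0.48. The other receptors of the BAFF and APRIL system, Tnfrsf13b and Tnfrsf17, differed from LMPPs by 0.19 and 0.15 and did not pass, nor did the BAFF gene Tnfsf13b. Of 8 measured B lineage markers, 1 fell and 0 rose against LMPPs. Cd79b fell, at -2.39, and unlike Tnfrsf13c it was also lower than in control cells, at -1.53. Ebf1 was at -0.88 against LMPPs, which was not a call. Pax5, Cd79a, Ms4a1, Vpreb1, Igll1 and Blnk ranged from -0.10 to 0.26 there. The mean log2 signal of the list was 6.43 and 6.51 in Tcf1 cells, 6.62 in control cells and 6.83 in LMPPs. Its lower value in Tcf1 cells than in LMPPs thus came mainly from Cd79b and Ebf1, not from the list as a whole. The part of these markers in the lower Tnfrsf13c signal was not tested.

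Of the 5 death receptors, Tnfrsf10b, the mouse TRAIL receptor, fell 2.83-fold relative to LMPPs, with 7.07 and 7.37 in Tcf1 cells, against 8.72 in LMPPs (log2 difference -1.50, SE 0.19, adjusted p = 0.00902, limma). The control array read 7.08, and the difference of 0.14 from it had a 95% interval of -0.31 to 0.59. Fas read 5.92 and 6.26 in Tcf1 cells, against 5.40 in both control cells and LMPPs, with differences of 0.70 and 0.69 that did not pass (adjusted p = 0.13 and 0.146, limma). Both Tcf1 arrays were above both other arrays for this dim probe set, and Fas passed in both comparisons under median centring and with an intensity trend in the prior. Tnfrsf1a, the main TNF receptor with a death domain, Tnfrsf21 and Tnfrsf25 passed neither test. Of 6 relatives outside the naming rule, 1 fell and 5 did not pass against LMPPs, and 0 passed against control cells. The one that fell was Eda2r, the receptor of ectodysplasin A2, whose probe set was dim, with 5.42 and 5.35 in Tcf1 cells, against 5.30 in control cells and 6.23 in LMPPs (log2 difference -0.85, adjusted p = 0.0456, limma).

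Tnfrsf22, Tnfrsf23 and Tnfrsf26 follow each other in the gene order and encode related receptors, of which Tnfrsf22 and Tnfrsf23 are mouse decoy receptors for TRAIL. Because the genes resemble each other, shared probe signal among them cannot be told from these values. Tnfrsf23 read 7.57 and 7.98 in Tcf1 cells, against 8.92 in control cells and 7.58 in LMPPs, and was 2.21-fold lower than in control cells (log2 difference -1.14, SE 0.21, adjusted p = 0.0309, limma). Tnfrsf26 read 9.11 and 9.27 in Tcf1 cells, against 10.38 in control cells and 9.43 in LMPPs, and was 2.29-fold lower (log2 difference -1.19, SE 0.17, adjusted p = 0.0115, limma). For these receptors the control array stood apart, and Tcf1 cells differed from LMPPs by 0.19 and -0.24 without passing. Tnfrsf22 read 9.13 and 9.22 in Tcf1 cells, against 9.37 in control cells, a difference of -0.20 that did not pass. Tnfrsf12a, the receptor of TWEAK in growth and repair, read 8.37 and 8.33 in Tcf1 cells, against 8.09 in control cells and 8.73 in LMPPs, and passed neither test. Tnfrsf19, a receptor known from epithelial and neural tissue, differed by 0.07 from LMPPs and by 0.16 from control cells and passed neither test.

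**Figure D2:**
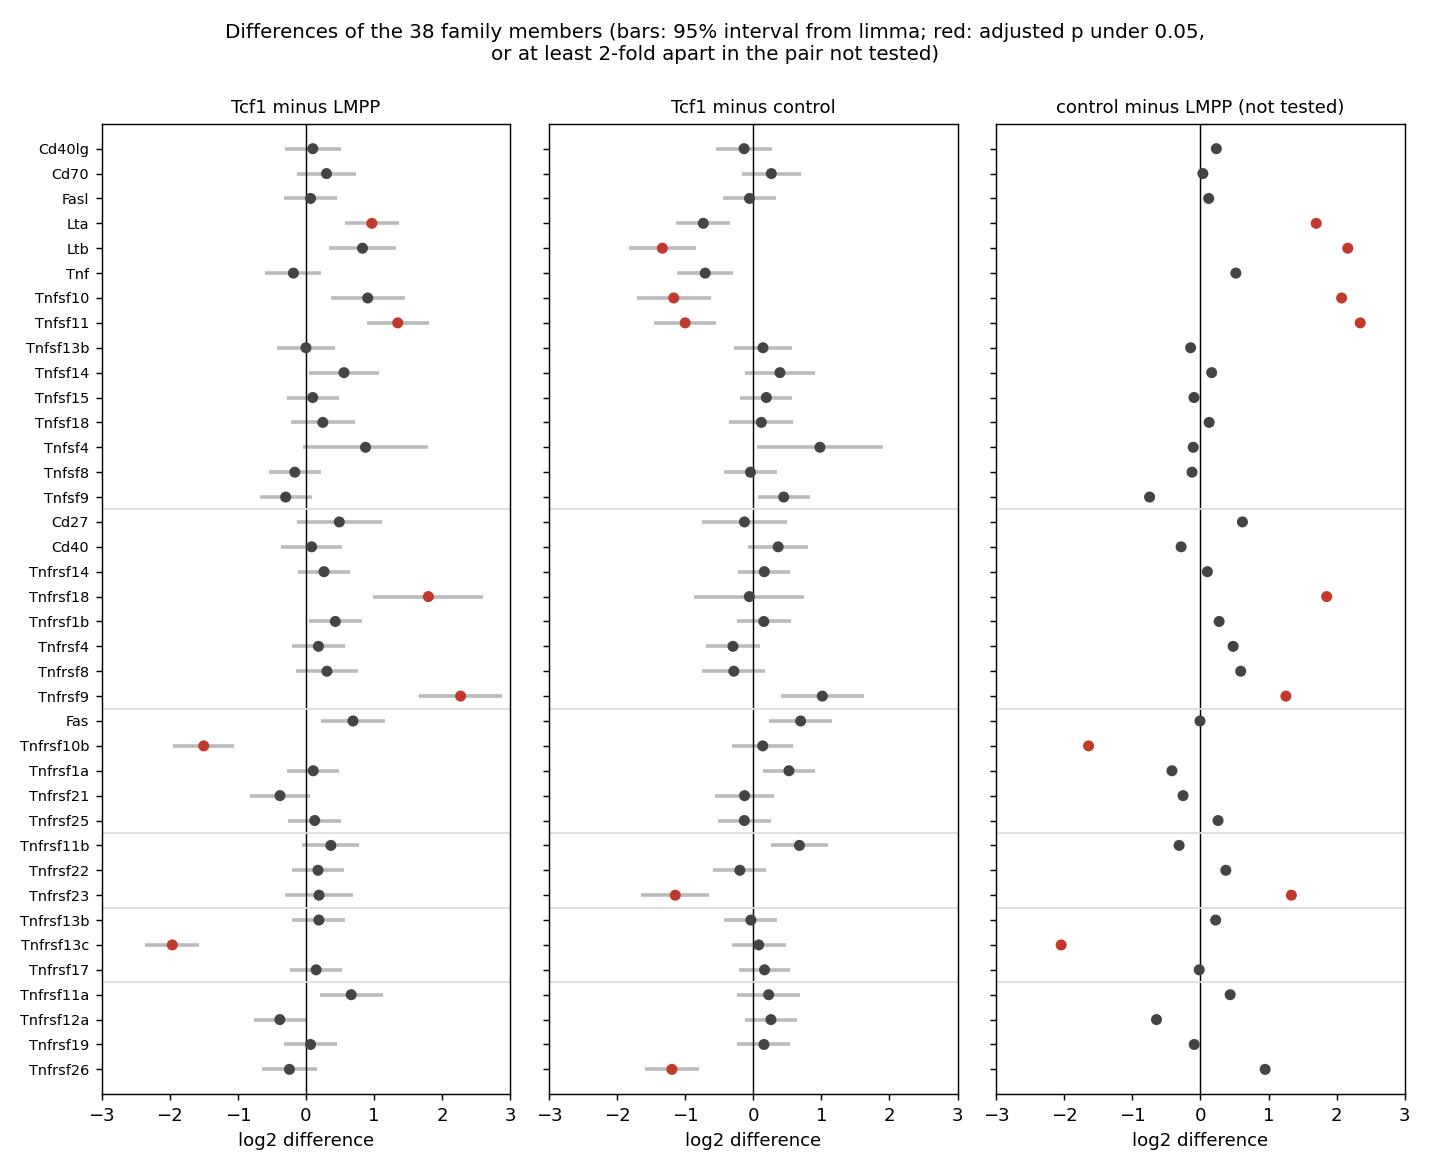
Log2 differences of the 38 family members, grouped from top to bottom as ligands, costimulatory receptors, death receptors, decoy receptors, receptors of the BAFF and APRIL system and other receptors. Bars are 95% intervals from limma, red points passed at an adjusted p under 0.05, and in the right panel, a pair that was not tested, red points were at least 2-fold apart. Red points in the middle panel are all below 0, from -0.999 for Tnfsf11 to -1.33 for Ltb.

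Control cells were set against LMPPs, 1 array against 1 and without a test, to describe the family in cells grown with Notch ligand. In this pair 9 members were at least 2-fold apart, 7 higher and 2 lower in control cells (23.7% of the family, where 5.53% of all genes were, 3.17% higher and 2.36% lower). The ligands Tnfsf11 (5.09-fold), Ltb (4.48-fold), Tnfsf10 (4.21-fold) and Lta (3.25-fold) were higher in control cells. So were the receptors Tnfrsf18 (3.61-fold), Tnfrsf23 (2.52-fold) and Tnfrsf9 (2.39-fold). Tnfrsf13c was 4.13-fold and Tnfrsf10b 3.12-fold lower in control cells. Tnfrsf26 fell just short of the limit, at 1.93-fold higher in control cells. Since this pair shares an array with each of the tests above, it is no independent support for them.

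The family is spread over 14 chromosomes of the mouse, and 18 members lie in 7 groups of neighbours with at most 1 other protein-coding gene between them in the RefSeq gene order (GRCm38.p6). The lymphotoxin group (Lta, Tnf, Ltb) differed from control cells by -0.73, -0.71 and -1.33. The group of Tnfsf9, Cd70 and Tnfsf14, by contrast, differed by 0.45, 0.27 and 0.39 from control cells, without a member past the test. In the group of Tnfsf4, Tnfsf18 and Fasl, the differences from control cells were 0.98, 0.12 and -0.05, and none passed. Sizes of difference were unlike in some groups, as Tnfrsf18 (1.80) and Tnfrsf4 (0.18) against LMPPs also show. They were closer in others, such as Tnfrsf1b (0.43) and Tnfrsf8 (0.31) against LMPPs.

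Promoter sequences from RefSeq, 250 bases before to 50 after a gene's start (GRCm38.p6), were at hand for 29 of the 38 members, in 33 windows. They were searched on both strands for GGGANTT (a half-site of NF-kB), CTTTGAT (Tcf/Lef factors, which include Tcf1) and GTGGGAA (RBPJ, the DNA-binding partner of Notch), of which the first and last can overlap but did not in these windows. The NF-kB letters were found in 3 member windows, against 16.5% of all 32851 windows, the Tcf/Lef letters in 2 (3.73% of all) and the RBPJ letters in 1 (6.38% of all). Of the 10 members that passed a test, 8 had a window, and those of Ltb, Tnfrsf9 and Tnfrsf23 held a match. The share of all windows with any of these motifs was not computed, and Tnfrsf9 had 2 windows. The NF-kB letters were also shortened after a first search, so this count does not set these members apart. The other matches, the NF-kB letters in Tnfrsf25 and the Tcf/Lef letters in Tnfrsf19, lay in members that passed neither test. These differed from LMPPs by 0.13 and 0.07. The windows of Ltb, Tnfrsf9 and Tnfrsf23 are shown because their genes carry the differences described above. Capitals mark the matches, and a match is a description of letters, not of binding. The Ltb window lies at chr17:35194257-35194556 on the plus strand, with the NF-kB letters on the opposite strand from 84 bases before the start.
Ltb: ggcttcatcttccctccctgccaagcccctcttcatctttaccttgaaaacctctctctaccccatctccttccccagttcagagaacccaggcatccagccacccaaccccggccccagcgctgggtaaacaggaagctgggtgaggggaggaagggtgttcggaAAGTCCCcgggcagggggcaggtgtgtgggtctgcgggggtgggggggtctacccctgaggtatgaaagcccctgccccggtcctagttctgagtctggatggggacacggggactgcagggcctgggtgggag
Tnfrsf9 has 2 annotated starts. The window at chr4:150919905-150920204, plus strand, holds the Tcf/Lef letters on the opposite strand from 80 bases before the start, and the window at chr4:150927749-150928048, plus strand, holds the NF-kB letters 2 times, from 89 and from 42 bases before the start.
Tnfrsf9, first start: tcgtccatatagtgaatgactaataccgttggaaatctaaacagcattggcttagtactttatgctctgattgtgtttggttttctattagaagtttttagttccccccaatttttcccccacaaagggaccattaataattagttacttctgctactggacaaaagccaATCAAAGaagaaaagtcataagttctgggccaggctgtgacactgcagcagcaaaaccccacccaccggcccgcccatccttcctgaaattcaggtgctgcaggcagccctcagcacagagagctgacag
Tnfrsf9, second start: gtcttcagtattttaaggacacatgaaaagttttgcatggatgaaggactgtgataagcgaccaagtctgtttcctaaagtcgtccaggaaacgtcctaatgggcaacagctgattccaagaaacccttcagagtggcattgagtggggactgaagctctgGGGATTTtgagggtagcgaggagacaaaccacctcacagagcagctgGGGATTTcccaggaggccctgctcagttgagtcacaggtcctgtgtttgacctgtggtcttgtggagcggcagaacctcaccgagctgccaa
The Tnfrsf23 window at chr7:143685826-143686125, minus strand, holds the RBPJ letters from 121 bases before the start.
Tnfrsf23: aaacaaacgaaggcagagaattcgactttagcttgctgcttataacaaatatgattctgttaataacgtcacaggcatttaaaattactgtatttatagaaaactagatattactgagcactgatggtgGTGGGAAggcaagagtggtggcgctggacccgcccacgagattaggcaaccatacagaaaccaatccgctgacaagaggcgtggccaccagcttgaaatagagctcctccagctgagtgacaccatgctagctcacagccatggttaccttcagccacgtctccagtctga

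Signalling genes below the receptors were followed in 3 lists, with 35 of 41 genes measured: adaptors and ubiquitin ligases (12 measured), NF-kB subunits, kinases and inhibitors (18) and death effectors (5). Against LMPPs, 0 of the 35 genes passed in limma, where 3.06% of all genes did. In the test without moderation 0 passed as well, but only 0.0602% of all genes did, so that count tells nothing about the lists. At an unadjusted p under 0.05, 2 were higher and 1 lower, where 5.33% of all genes were higher and 9.22% lower. With so few genes these counts do not set the lists apart from all genes. Against control cells 2 of the 35 passed as higher and 1 as lower, where 1.9% of all genes were higher and 2.49% lower. Mlkl, the pore-forming effector of necroptosis, read 9.94 and 9.94 in Tcf1 cells, against 8.80 in control cells and 10.40 in LMPPs. It was higher than in control cells (log2 difference 1.14, SE 0.16, adjusted p = 0.0113, limma), while both Tcf1 arrays were below the LMPP array. Bcl3, a nuclear partner of the NF-kB subunit p50, read 9.51 and 9.86 in Tcf1 cells, against 8.50 in control cells and 9.27 in LMPPs. Its log2 difference from control cells was 1.19 (SE 0.20, adjusted p = 0.0211, limma). Traf4, a Traf adaptor, read 9.54 and 9.58 in Tcf1 cells, against 10.72 in control cells and 9.36 in LMPPs. Here the control array stood apart (log2 difference of Tcf1 from control cells -1.16, SE 0.16, adjusted p = 0.0107, limma). The rest of the pathway differed without passing, for example Traf1, an NF-kB-induced adaptor, by 1.11 (adjusted p = 0.146, limma) with replicates at 6.59 and 7.44, and Tnfaip3, the feedback inhibitor A20, by -0.80 (adjusted p = 0.153, limma). Median differences of the 35 genes were 0.08 against LMPPs and -0.09 against control cells, beside 0.00 and 0.02 for all genes.

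**Figure D3:**
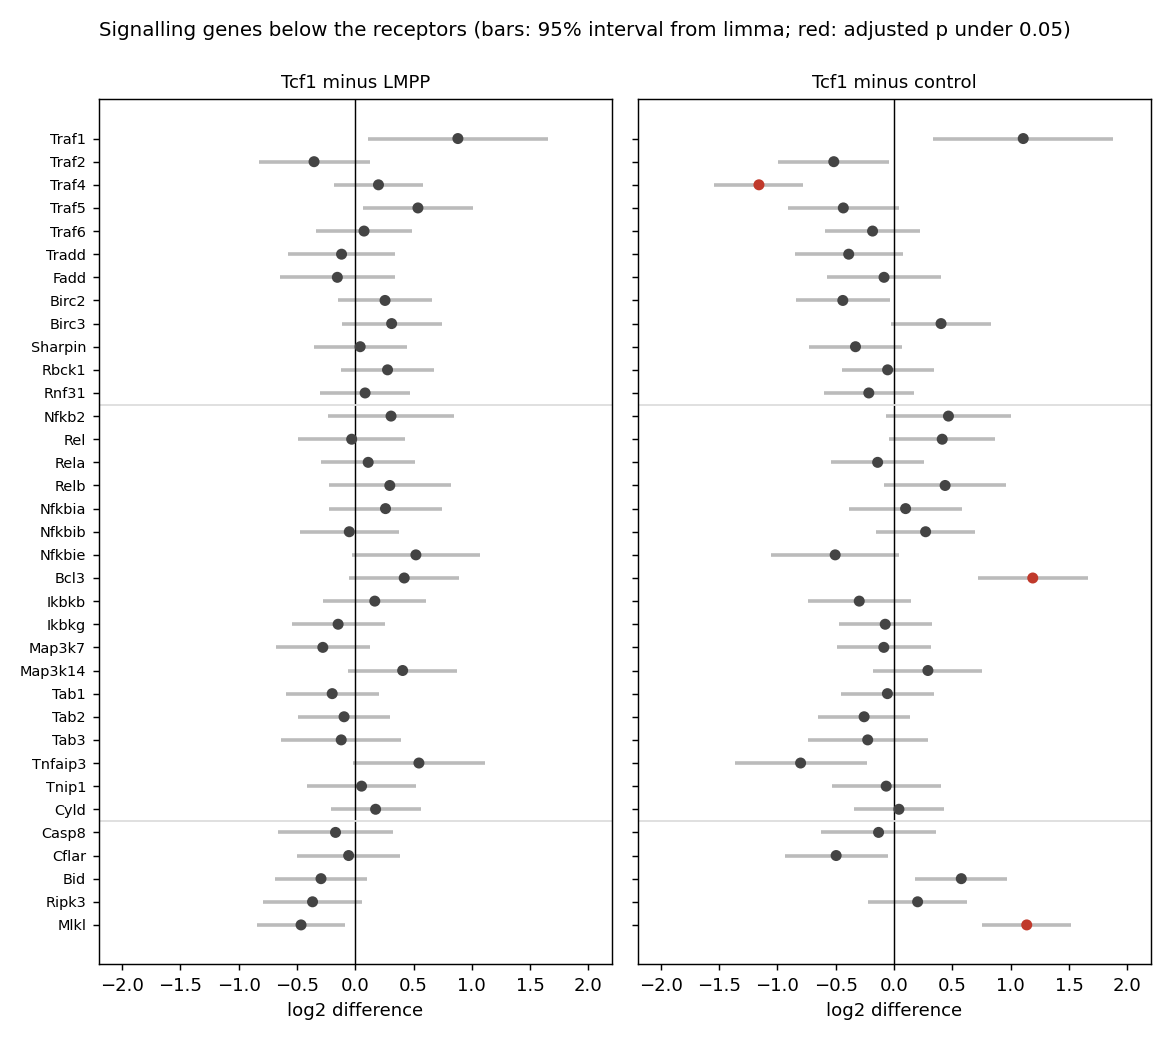
Log2 differences of 35 signalling genes below the receptors, with adaptors and ubiquitin ligases at the top, NF-kB genes in the middle and death effectors at the bottom. Bars are 95% intervals from limma and red points passed at an adjusted p under 0.05. Red points are seen only in the right panel, for Traf4 below 0 and for Bcl3 and Mlkl above 0.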

How the data were processed

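The labels' protocols give total RNA, amplification with an Ambion WT Expression kit and Affymetrix WT labelling. The authors deposited log2 signals per probe set, made with RMA and Partek 6.5 per the submitters' processing notes. The base of the log was taken from RMA and the range of 3.44 to 14.45. The array annotation gave 21789 of 35399 probe sets a single symbol, 1621 several and 11989 none. For each gene the probe set with the highest mean was kept. All 38 members matched RefSeq by Entrez number with an unchanged symbol.

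One mean per group was estimated in limma 3.58.1 (R 4.3.3), with 1 residual degree of freedom and a prior of 5.78. For control cells against LMPPs no test was made. The fit was tested on simulated data. Members past a test or at least 2-fold apart in that untested pair, and their partners, are described singly. Members, gene lists and motifs were chosen with earlier results of these data known, and after a first search the NF-kB letters were shortened and an interferon response motif was dropped. Alternatives were scaling, filters on dim genes, probe set choice, moderation and single Tcf1 arrays. Precision is limited by the low number of arrays.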

Additional observations from a re-analysis of the deposited data

How the results depend on the processing

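No paired analysis was possible because LMPPs and control cells had 1 array each. Of the 10 members past a test, none changed direction under any alternative run in a comparison it passed. Filters, probe set choice, the intensity trend and moderation could not change a direction. Each member had 1 probe set, and these settings altered only the test. Scaling moved differences by little beside their size, as for Lta against LMPPs (0.97 on the deposited scale, 0.93 after median centring). Directions were thus open to change mainly with single Tcf1 arrays. Quantile normalization turned the sign of Tnfrsf13b and Tnfrsf18 against control cells, where neither passed and differences were at most 0.06 in size. The 6 members passing against LMPPs and the 5 passing against control cells all fell short, at 0 each, without moderation (1 residual degree of freedom) and over all 35399 probe sets, as did the 3 pathway genes against control cells. Against control cells, median centring gave 10 members (3 higher, 7 lower; 8.26% of all genes). Leaving out genes below the 25th percentile gave 9 (2 higher, 7 lower), where 4.04% of the genes tested were higher and 5.57% lower, and leaving out those below the median gave 8 (1 higher, 7 lower), where 5% were higher and 7.99% lower. The 5 members passing on the deposited scale over all genes were among them each time. Pathway genes against control cells came to 5 under median centring and with the 25th percentile filter. Over all genes, median centring moved the calls to 1456 against LMPPs and 1646 against control cells, beside 610 and 874 on the deposited scale. Without 1 Tcf1 replicate no test is left. Members whose Tcf1 mean was at least 2-fold from LMPPs numbered 5 (2.9% of all genes), and 5 to 9 with a single array, the 9 being without replicate 1. Against control cells they numbered 5 (3.8% of all genes), and 4 to 5 with a single array. For single arrays the share of all genes was not computed, so those ranges do not set the family apart. These counts were added after the data were seen. The cause of these changes was not tested. The number of arrays, and signal near the dim end for Cd40lg, Fas, Fasl and Tnfsf18, limit the precision.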
